A study of Sus scrofa with 15 samples.

Results

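Backfat of the Taihu pig was followed over months 1 to 5 on 5 of the 15 two-colour spotted arrays of the series. These are the arrays on which Taihu RNA of one month was set against Taihu RNA of another: month 2 against month 1, month 3 against month 2, month 4 against month 3, month 5 against month 4, and month 1 against month 5, which closes the months into a loop. The month named first in each pair was labelled with Cy3 and the other with Cy5. Each month is represented by 1 RNA sample per breed, and each of the 5 Taihu RNA samples is on 3 arrays. The remaining 10 arrays are the same loop in Landrace (5 arrays) and a direct comparison of Taihu (Cy5) with Landrace (Cy3) at each month (5 arrays). All groups are untreated backfat as far as the labels say, and the labels do not give what the months are counted from, the sex of the pigs, or the number of pigs behind an RNA sample.

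Backfat is the subcutaneous fat under the skin of the back. Its main cells, the adipocytes, take up fatty acids, make new fatty acids from glucose and store both as triglyceride, and in the pig most new fatty acid synthesis takes place in this kind of tissue. Taihu is a fat-type Chinese breed and Landrace a lean-type breed selected for little backfat.

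The arrays carry 140 distinct positions outside the first 12 positions of each block, each printed in 4 copies. A position is known only by its code (block row, row and column, such as Sr01R04C03), and the files and reference tables used here pair 0 of these codes with a gene name. The tissue label could therefore not be checked against marker genes, and no function can be given for any position. In bulk tissue, fewer cells of a type and less RNA per cell cannot be told apart. Of the 140 positions, 138 were measured on all 5 Taihu loop arrays. The other 2 had all copies marked as unusable on the array of months 3 and 2.

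Values are log2 differences, later month minus earlier month. In a closed loop the differences between months cancel when the 5 log ratios are added, so their mean at a position is the difference between the dyes, and each step was taken with this dye term removed. This solution uses all 5 arrays and leaves 0 residual degrees of freedom. With 1 RNA sample per month there is no test of any step, and the SDs given are over the 4 printed copies, which cover spotting and scanning and not the spread between pigs. A position is called higher or lower in what follows where it passed 2-fold (log2 1.00). Each step also has a second estimate from arrays outside the Taihu loop: the 2 breed arrays of the months concerned and the Landrace array that joins those months, with the dye term of the Landrace loop. It is called the indirect path, and it shares the Taihu RNA samples with the loop but none of its arrays.

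Net intensity is the mean signal of a spot minus its median local background, on the scanner's linear scale. Its median per Taihu loop array was 637 to 2579 in Cy5 and 971 to 1858 in Cy3. The array of months 3 and 2 stood apart in the balance of its dyes, with a median log2 Cy5 over Cy3 of -0.71 before centring, against 0.27 to 0.43 on the other 4 arrays of the loop. It also had 9 of the 14 marked spots among the 2800 of the loop, and the widest spread between copies (median SD 0.138 log2). Its median Cy5 intensity, that of month 2, was the lowest of the loop. Of the 15 Cy5 spots in the loop that were not 2 background SDs above background, 11 were on this array.

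The array labelled Taihu month 4 over month 5 went against its labels. Across the 140 positions, the log2 net intensity read for month 4 on it had correlations of r = 0.455 and 0.541 with the 2 other readings of the month 4 RNA sample. The reading for month 5 had r = 0.668 and 0.688 with the 2 other readings of that RNA sample. Among the 28 readings on the other 14 arrays, any 2 readings of the same RNA sample had r = 0.897 to 0.988. The reading on it labelled month 4 came no higher than r = 0.893 with a reading of another RNA sample on another array, and the reading labelled month 5 no higher than 0.873. These correlations are descriptions over positions that share probes and arrays. Its 2 channels resembled each other (r = 0.973). Position Sr01R04C03 had a net intensity of 563 for month 4 on this array, against 11136 and 6889 on the 2 other arrays with that RNA sample. At Sr01R06C03 the order was the opposite, with 50300 on this array against 761 and 362. Which RNA was on the array was not tested. It is called the doubtful array in what follows.

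**Figure D1:**
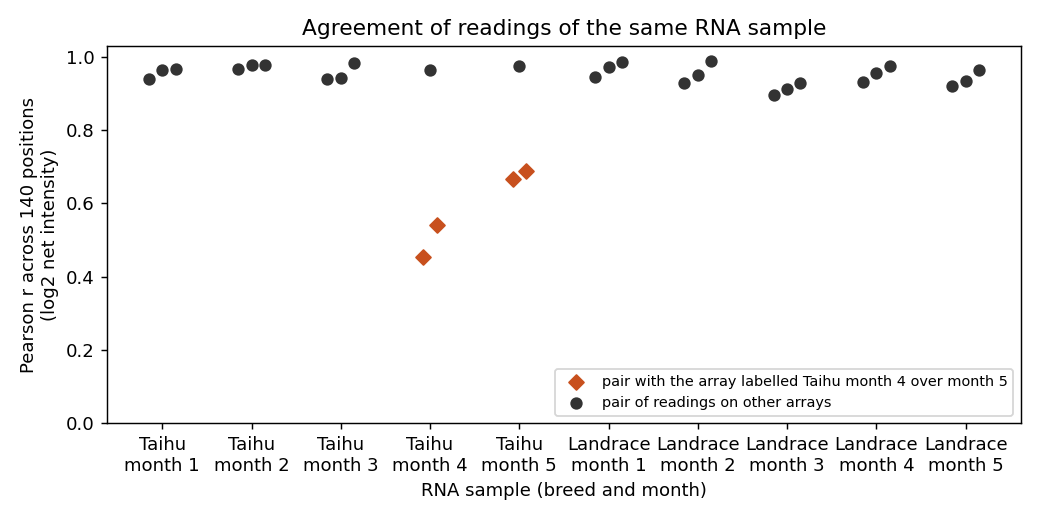
Pearson r across 140 positions between every 2 readings of the same RNA sample, by breed and month; each point is a pair of readings on different arrays. The pairs with the array labelled Taihu month 4 over month 5 (diamonds) lie at 0.455 to 0.688, and the pairs on other arrays (circles) at 0.897 to 0.988.

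Because this array enters the dye term, it touches every step of the loop. The steps, counts and named positions are therefore given with the 5 arrays as designed and without this array. Without it the loop is open, the dye term was taken from the Landrace loop, and month 5 over month 4 followed from month 5 over month 1 minus the other 3 steps. The values without the array and the indirect path then share the Landrace dye term. The array of months 3 and 2 did not show this discrepancy: its month 3 reading had r = 0.941 and 0.943 with the other readings of that RNA sample, and its month 2 reading had r = 0.968 and 0.977.

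The step between months 2 and 3 had the largest root mean square of the 4 steps with all 5 arrays, without the array labelled month 4 over month 5, and by the indirect path. At month 3, 18 of 138 positions were lower than at month 2 (13.0%) and 12 were higher (8.70%). Without that array 21 were lower (15.2%) and 14 higher (10.1%), and by the indirect path 19 were lower (13.8%) and 5 higher (3.62%). Centred on the first 12 positions of the blocks in place of the array median, the 5 arrays gave 21 lower and 4 higher. With spots at the scanner's ceiling left out, 125 positions remained, of which 8 were lower and 11 higher, so the excess of lower positions was not present under that setting. Without ceiling spots and without the array labelled month 4 over month 5, 132 positions remained, with 17 lower and 15 higher. The root mean square of the step over all positions was 1.25 ± 0.08 log2 with all 5 arrays (SD over copies, n = 4), 1.43 ± 0.10 without that array and 1.23 ± 0.04 by the indirect path. The distribution was lopsided. It ran from -4.33 to 2.60 with a median of 0.16 and quartiles of -0.54 and 0.61, and the 18 lower positions held 75.0% of its sum of squares. Without the doubtful array it ran from -5.11 to 2.59 with a median of 0.05 and quartiles of -0.66 and 0.60, and the 21 lower positions held 75.8%.

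**Figure D2:**
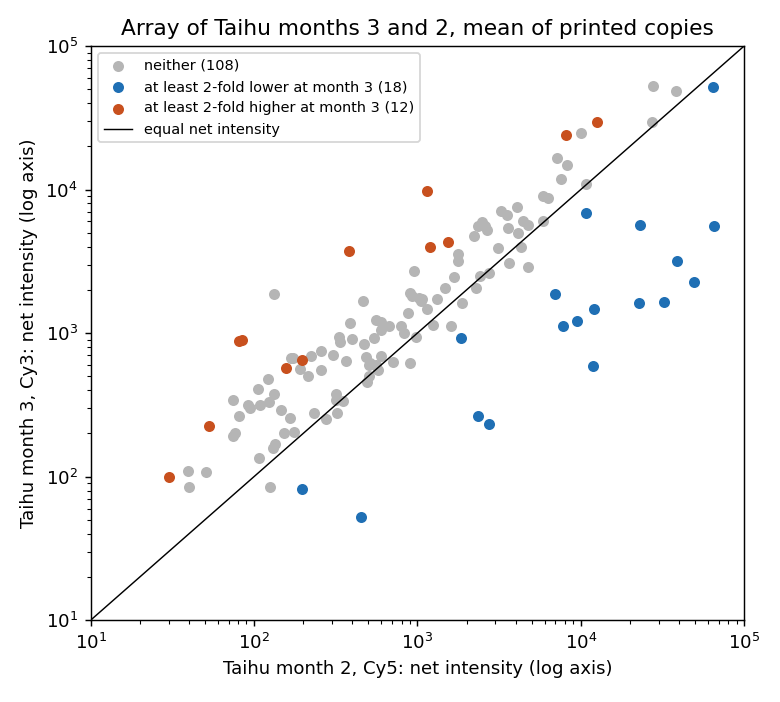
Net intensity of each position on the array of Taihu months 3 and 2, month 3 (Cy3) on the y axis and month 2 (Cy5) on the x axis, both log axes, each point the mean over the printed copies. The 18 positions lower at month 3 lie to the right of the main cloud, up to the scanner's ceiling, and most of the 12 higher positions lie along its upper left edge; the line marks equal intensity before centring and dye correction.

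Among the positions that met the rule for named positions, Sr01R06C03 had the largest reduction with all 5 arrays. The order of the lowest positions differed between estimates. The lowest was Sr01R05C07 without the doubtful array, at log2 -5.11, and Sr02R06C04 by the path, at -4.30. Both are named here after their values were seen, and Sr01R05C07 had 2 of 4 month 2 copies at the ceiling on the array of months 3 and 2. On that array Sr01R06C03 had a net intensity of 592 for month 3 and 11925 for month 2. Its month 3 readings on the 2 other arrays were 1455 and 708, against month 2 readings of 26331 and 30574. The 3 month 3 readings thus did not overlap the 3 month 2 readings. Named positions were chosen by values from these same arrays, so a lack of overlap, here and below, is description and no separate support. The readings are uncentred repeats of 1 RNA sample per month. The step was log2 -4.33 ± 0.59 (SD over copies), a 20.1-fold lower level at month 3, with copies at -4.92, -4.68, -4.09 and -3.62. It was -4.77 without the array labelled month 4 over month 5 and -4.22 by the indirect path, against -0.82 for the same step in Landrace.

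Sr02R09C04 was 19.6-fold lower at month 3. Its net intensities were 1647, 2780 and 1024 at month 3, against 32311, 62046 and 53739 at month 2, so that the months did not overlap. The step was log2 -4.30 ± 0.15 with all 5 arrays, -4.61 without the doubtful array and -4.03 by the indirect path. In Landrace it was -0.26. Of the 4 month 2 copies on the breed array, 2 were at the scanner's ceiling, which bears on the indirect path. All 4 Cy5 copies were at the ceiling on the doubtful array, which enters the dye term of the loop value. At Sr01R06C03, 1 of 4 was.

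The largest increase was at Sr01R04C03. Its net intensities at month 3 were 9804, 19492 and 16382, against 1139, 1187 and 1385 at month 2, with no overlap. The step was log2 2.60 ± 0.04, a 6.05-fold higher level at month 3, with 2.58 without the doubtful array and 2.79 by the indirect path. The next was Sr01R04C06, with net intensities of 3729, 9220 and 8518 at month 3, against 384, 1015 and 836 at month 2. Its step was log2 2.53 ± 0.25, with 2.59 without the doubtful array and 2.45 by the indirect path. The months did not overlap at this position either. In Landrace the same step was log2 1.46 at Sr01R04C03, past 2-fold, and 0.81 at Sr01R04C06, inside it.

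The 2 estimates shared more of the reductions than of the increases. Of the 18 lower positions, all 18 were also lower without the array labelled month 4 over month 5, 16 were past 2-fold by the indirect path and 17 had the same sign there. The exception in sign was Sr02R09C08, named here after its values were seen, at log2 -1.08 in the loop and 0.18 by the path. It had 35 of 40 Taihu loop readings at the scanner's ceiling. Of the 12 higher positions, 8 were past 2-fold without that array, 4 were past 2-fold by the path and 10 had the same sign. Apart from Sr01R04C03 and Sr01R04C06, the other 10 lay between log2 1.00 and 1.18. Some higher calls rest on weak signals. Sr01R02C07, named here after its values were seen, was at log2 1.17 in the loop and -0.08 by the path. Its net intensities on the array of months 3 and 2 were 30 for month 2 and 100 for month 3. Over the 138 positions the loop and the path had r = 0.94 (rank correlation 0.82), with a median absolute difference of 0.23 log2. Without that array r was 0.90 and the median absolute difference 0.28.

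**Figure D3:**
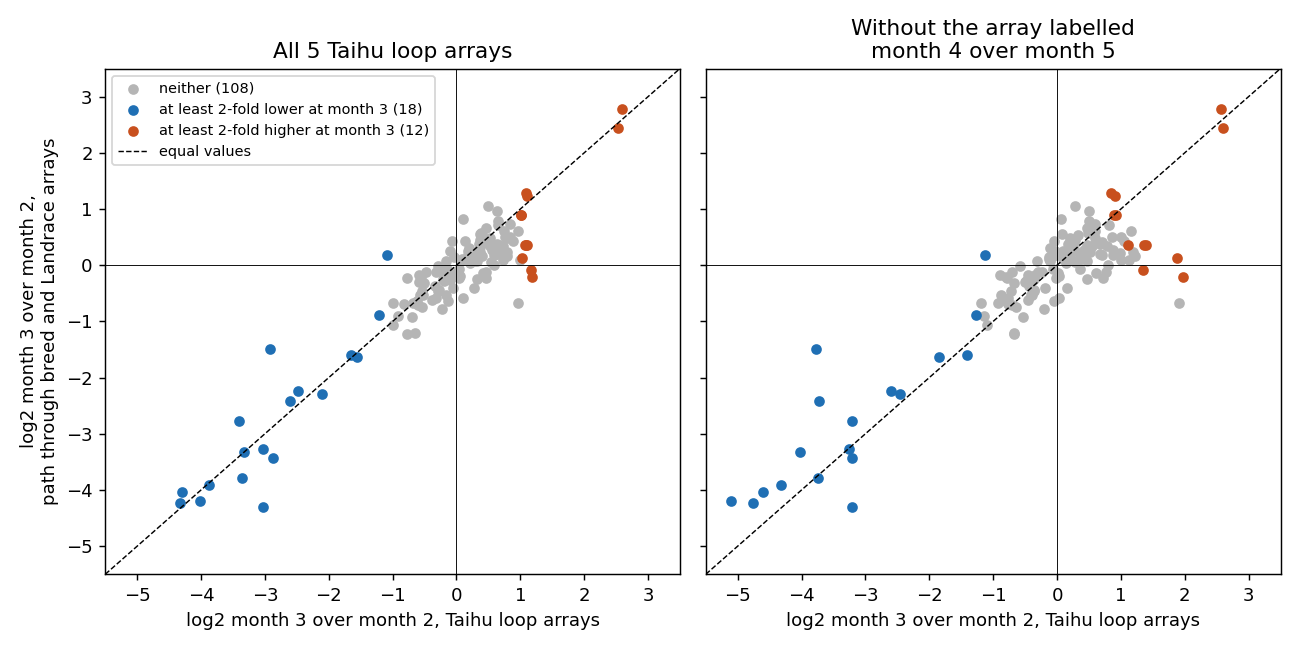
Log2 month 3 over month 2 by the indirect path (y axis) against the Taihu loop (x axis) for 138 positions, with all 5 loop arrays (left) and without the array labelled month 4 over month 5 (right); the dashed line marks equal values. In both panels the lower positions spread along the line down to below log2 -4, while most of the higher ones gather near 2-fold in the loop and below it by the path.

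Spots at the scanner's ceiling have compressed ratios. Of the 18 lower positions, 12 had at least 1 reading at the ceiling in the Taihu loop, but 4 did when the array labelled month 4 over month 5 was left aside. Over all 138 positions these counts were 17 and 8. Among the 108 positions called in neither direction they were 4 and 3. On the array of months 3 and 2, Sr01R07C08 had all 4 month 2 copies at the ceiling, at a net intensity of 65290, against 5593 for month 3, so its step is known only as a bound. The dye term passed 2-fold at 4 of the 18 lower, 2 of the 12 higher and 1 of the 108 other positions. The lower positions were spread over both rows of blocks, 10 in the first and 8 in the other. The 108 other positions had 50 and 58 there. Of the 18 lower positions, 8 had another of them printed beside it, as had 2 of the 12 higher positions. The share for other lists of this size was not computed. The positions that passed 2-fold by least were Sr02R09C08 at -1.08 and Sr01R04C09 at 1.00. The nearest that did not pass were at -0.99 and 0.99.

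The 18 positions lower at month 3 had their highest level at month 2, in 18 of 18 with all 5 arrays and in 18 of 18 without the doubtful array. Over all 138 positions month 2 was highest at 33 and 30. The 18 were chosen for a higher level at month 2 than at month 3, so their count is partly set by that choice. Relative to each position's mean over the 5 months, the medians of their levels from month 1 to month 5 were 0.36, 2.37, -0.66, -1.10 and -0.68. Without the doubtful array these medians were 0.67, 2.37, -1.03, -1.46 and 0.01. The level of month 2 relative to the mean of the months is the same in both by construction, because the change of dye term shifts both equally, so only the other months are a comparison between the estimates. In both, the lowest median was that of month 4. The level at month 5 differed between the estimates, near that of month 3 with the array and at the mean of the months without it. The steps on either side of month 2 share its RNA sample and are not independent: month 2 over month 1 had a median of 1.60 over these positions (1.40 without the doubtful array) and month 3 over month 2 a median of -2.97 (-3.24). The median of all 138 positions was 0.00 at the first of these steps and 0.16 at the other.

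**Figure D4:**
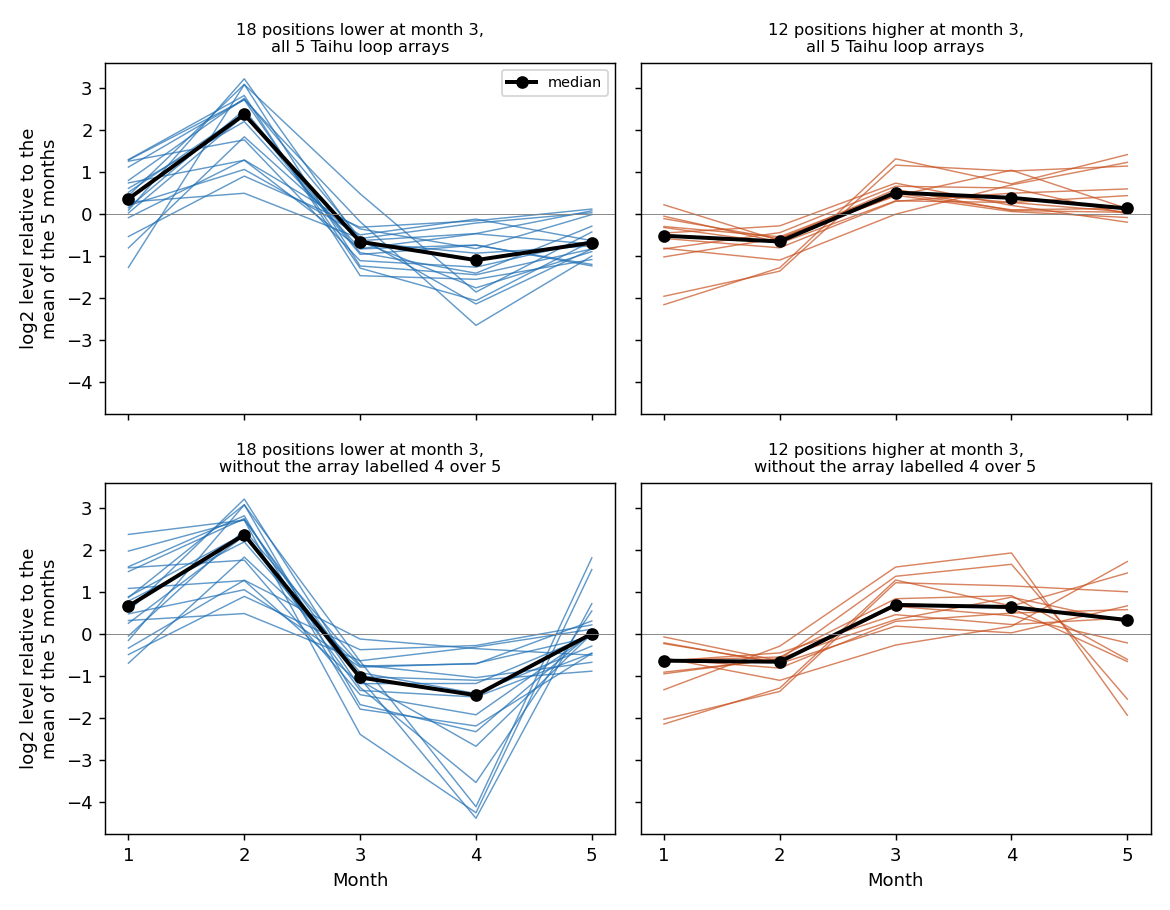
Log2 level of the 18 positions lower at month 3 (left) and the 12 higher at month 3 (right) at months 1 to 5, relative to each position's mean over the months, with all 5 Taihu loop arrays (top) and without the array labelled month 4 over month 5 (bottom); thin lines are positions and thick lines medians. The lower positions are highest at month 2, with a median of 2.37 that is equal in both rows by construction, and their median at month 5 is -0.68 with that array and 0.01 without it.

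Against month 2, the later months were also low at these positions. Month 4 over month 2 had a median of -3.21 with all 5 arrays, -3.72 without the doubtful array and -3.57 by the path, with 17, 17 and 16 of the 18 past 2-fold. Over all 138 positions the share that low was 13.0%, 15.2% and 11.6% by these estimates. Month 5 over month 2 had a median of -3.24 with all 5 arrays, but -1.89 without that array and -1.68 by the path, with 16 of 18 past 2-fold in each, beside 13.8%, 15.9% and 13.0% of all positions. Month 4 over month 2 is the sum of month 3 over month 2, by which the 18 were chosen, and month 4 over month 3. Its counts with and without the doubtful array were thus largely set by that choice. Month 4 over month 3 had a median of -0.18 at the 18 positions with all 5 arrays. It was -0.35 without the doubtful array and -0.08 by the path. All comparisons with month 2 also share its RNA sample with month 3 over month 2. At the 12 higher positions the medians of the levels from month 1 to month 5 were -0.52, -0.66, 0.51, 0.38 and 0.13, with the lowest at month 2 and the highest at month 3. Both months are those by which these positions were chosen. Without the doubtful array the medians were -0.63, -0.66, 0.70, 0.65 and 0.34.

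In Landrace backfat, which shares no RNA sample or array with the Taihu loop, month 3 over month 2 was negative at all 18 of these positions. The Landrace median over them was -0.47, with 5 past 2-fold, beside a median of 0.00 over all 138. In the Landrace loop 5 of 138 positions were lower at month 3 (3.62%) and 1 was higher (0.725%), and the root mean square was 0.42 ± 0.03. The Landrace medians of the levels of the 18 positions were 0.85, 0.54, 0.04, -0.56 and -1.12 from month 1 to month 5, each lower than the one before. Single positions differed from these medians: the highest Landrace level was at month 1 in 10 of the 18 and at month 2 in 8. Month 5 over month 1 in Landrace was negative at 18 of 18, with a median of -2.27 and 15 past 2-fold, where 12.3% of all positions were that much lower. The same comparison in Taihu had a median of -1.13, or -0.73 without the doubtful array. By these estimates 9 and 6 were past 2-fold lower, beside 9.42% and 5.80% of all positions. By the path the Taihu median was -0.47, with 10 of 18 negative, 2 past 2-fold lower and 1 past 2-fold higher. Of all positions, 5.80% were that much lower and 10.1% that much higher by the path. The breed arrays, corrected with the Landrace dye term, put Taihu over Landrace at these positions at a median of 0.70 at month 2 and -1.72 at month 3. At month 2 the signs were mixed, with 11 positive and 7 negative, and 5 were past 2-fold higher in Taihu. Of the 108 positions called in neither direction, 3 were that much higher, and of the 12 higher positions 0. At month 3, 17 of 18 were negative and 13 were past 2-fold, beside 10.1% of all positions. The breed arrays of months 2 and 3 hold the Taihu RNA samples by which the 18 were chosen. Their values at these positions are therefore partly set by that choice and are no separate support. Whether the step differs between the breeds was not tested, since each has 1 RNA sample per month.

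**Figure D5:**
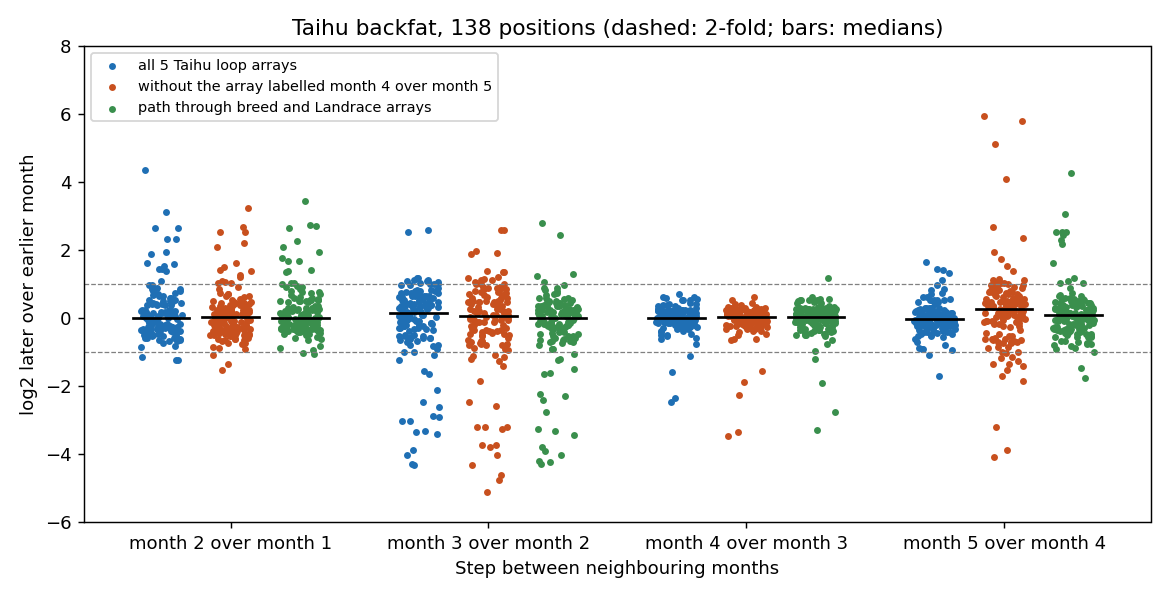
Log2 later over earlier month for 138 positions at each step, with all 5 Taihu loop arrays, without the array labelled month 4 over month 5, and by the indirect path; bars are medians and dashed lines mark 2-fold. The tail of lower positions at month 3 over month 2, down to log2 -4.33 with all 5 arrays, is present in all 3 estimates, while month 5 over month 4 is wider without that array and by the path than with all 5 arrays.

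From month 1 to month 2 most of the called positions were higher at month 2. With all 5 arrays 15 of 138 were higher (10.9%) and 3 lower (2.17%). Without the doubtful array the counts were 16 (11.6%) and 3 (2.17%), and by the path 16 (11.6%) and 2 (1.45%). The root mean square was 0.86 ± 0.02, 0.77 ± 0.07 and 0.79 ± 0.01 in that order. Of the 15 higher positions, 13 were past 2-fold by the path and all 15 had the same sign.

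Sr01R05C08 had the largest increase of the named positions. Its net intensities at month 2 were 16959, 14263 and 9534, against 2379, 1175 and 797 at month 1, without overlap. The step was log2 4.36 ± 0.40 with all 5 arrays, but 3.23 without the doubtful array and 3.44 by the path. The dye term at this position was 1.26 in the Taihu loop and 0.13 in the Landrace loop, and on the array labelled month 4 over month 5 all 4 of its Cy5 copies were at the ceiling. Sr02R06C03 came next at log2 3.13 ± 0.06 (2.68 without that array, 2.74 by the path), with net intensities of 55750, 50957 and 22630 at month 2, against 11225, 3354 and 2413 at month 1. On the doubtful array Sr02R06C03 had all 4 copies of both channels at the ceiling, which enters its loop dye term, and 1 of 4 month 2 copies was at the ceiling on the breed array. Both positions are among the 18 that were lower at month 3. In Landrace the step was log2 1.10 at Sr01R05C08 and 0.75 at Sr02R06C03.

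The reductions at month 2 were small. Sr02R06C02 was at log2 -1.24 ± 0.06 (-1.34 without the doubtful array, -1.04 by the path), with net intensities of 965, 1135 and 598 at month 2, against 3326, 1538 and 1305 at month 1. Sr02R10C01 was at log2 -1.22 ± 0.06 (-1.53 and -1.05). The raw readings of Sr02R10C01 overlapped between the months across arrays, at 12145, 19332 and 7534 for month 2, against 41943, 12305 and 20372 for month 1.

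The step from month 3 to month 4 had the smallest root mean square of the 4 steps by all 3 estimates. It was 0.42 ± 0.02 with all 5 arrays, 0.55 ± 0.04 without that array and 0.51 ± 0.06 by the path. No position was higher at month 4 with all 5 arrays (0.00%), and 4 were lower (2.90%). Without that array 0 were higher (0.00%) and 5 lower (3.62%), and by the path 1 was higher (0.725%) and 4 lower (2.90%). All 4 lower positions belonged to the 18 that were lower at month 3. Sr01R07C08 had net intensities of 618 and 8399 at month 4 on the arrays outside the doubtful one, against 11761, 5593 and 40450 at month 3, and the months overlapped across arrays. Its step was log2 -2.47 ± 0.07 with all 5 arrays, -3.34 without the doubtful array and -3.30 by the path. The dye term of the Taihu loop at this position, 1.34, includes arrays on which both channels were at the ceiling, and the Landrace loop gave 0.48. Sr01R05C08 had 191 and 621 at month 4, against 3194, 1213 and 5435 at month 3, without overlap. Its step was log2 -2.34 ± 0.22, with -3.47 without the doubtful array and -2.77 by the path. In Landrace it was -2.09 at Sr01R05C08 and -1.33 at Sr01R07C08.

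Month 5 over month 4 depended on the doubtful array. With it, 5 of 138 positions were higher (3.62%) and 2 lower (1.45%), with a root mean square of 0.47 ± 0.02. Without it, 19 were higher (13.8%) and 13 lower (9.42%), with a root mean square of 1.32 ± 0.14. By the path, 13 were higher (9.42%) and 2 lower (1.45%), with 0.84 ± 0.02. The value without the array is a sum over 4 arrays and carries the dye term of the Landrace loop 4 times. Of the 5 positions higher with all 5 arrays, 4 were past 2-fold by the path, and of the 2 lower ones 0 were.

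The 2 named positions that were higher at month 5 by the loop were at the scanner's ceiling on the doubtful array. Sr01R07C08 had all 4 copies of both channels at the ceiling there, so that array gives no fold for it. The loop's log2 1.65 and the 5.12 without the array, which rests on ceiling spots of months 1 and 2, are not measurements of its size. By the path it was 3.07, with 1 of 4 month 5 copies at the ceiling on the breed array. Sr01R05C08 had all 4 month 4 copies at the ceiling there, at a net intensity of 65255, and 2 of 4 month 5 copies. On the other arrays it had 4621 and 8773 at month 5, against 191 and 621 at month 4, without overlap, and the path gave log2 2.44. Sr02R05C02, the lowest position meeting the rule for named positions, was at log2 -1.08 with all 5 arrays, but at -0.07 without the array and -0.16 by the path.

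Over the whole span, month 5 over month 1 rests mainly on the array that holds these months directly. With all 5 arrays 12 positions were higher at month 5 (8.70%) and 13 lower (9.42%). Without the doubtful array 18 were higher (13.0%) and 8 lower (5.80%), and by the path 14 were higher (10.1%) and 8 lower (5.80%). Sr01R04C03 and Sr01R04C06, the positions most increased at month 3, were also the most increased at month 5. Sr01R04C03 had net intensities of 11912 and 11858 at month 5 outside the doubtful array, against 653, 1113 and 544 at month 1. It was at log2 3.58 ± 0.30, an 11.95-fold higher level at month 5, with 3.60 without the doubtful array and 3.81 by the path. Sr01R04C06 was at log2 3.10 ± 0.31 (3.04 and 2.68). The Landrace values were 2.26 at each of these positions.

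The reductions over the whole span were less settled. Sr02R09C04 was at log2 -2.38 ± 0.05 with all 5 arrays and -2.07 without the doubtful array, but at -0.76 by the path, where it did not pass 2-fold. Its net intensities outside the doubtful array were 5837 and 7183 at month 5, against 16066, 34935 and 11063 at month 1, without overlap. Sr01R07C08 was at log2 -2.12 ± 0.30, -1.25 without the doubtful array and -0.78 by the path, and it had 2 of 4 month 1 copies and 1 of 4 month 5 copies at the ceiling on the array of these months. On the breed arrays that the path uses, all 4 month 1 copies and 1 of 4 month 5 copies were at the ceiling. Ceiling spots thus enter its path value as well. Of the 13 lower positions, 12 had the same sign by the path and 5 were past 2-fold there. Of the 12 higher positions, 12 had the same sign and 9 were past 2-fold.

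The dye term itself can be compared between the loops, which share no array. Its root mean square over 138 positions was 0.44 log2 in the Taihu loop and 0.24 in the Landrace loop. The 2 sets of dye terms had r = 0.81 (rank correlation 0.71) across positions, which share probes and labelling chemistry. In the Taihu loop 7 positions had a dye term beyond 2-fold, against 1 in the Landrace loop, and the loops differed by more than log2 1.00 at 2 positions. The Taihu dye terms ran from -2.15 to 1.34, and they include the array labelled month 4 over month 5.

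Counting over all 138 positions, month 2 held the highest level at 33 positions and the lowest at 45, and month 3 held the highest at 33 and the lowest at 25. Month 1 was highest at 26 and lowest at 35, month 4 highest at 22 and lowest at 17, and month 5 highest at 24 and lowest at 16. Without the doubtful array the highest level was at months 1 to 5 in 26, 30, 13, 31 and 38 positions, and the lowest in 29, 32, 21, 35 and 21. These counts include differences smaller than the spread between copies. For the 2 positions without a loop value, the path put month 3 over month 2 at log2 0.44 ± 0.09 for Sr01R07C07 and 0.15 ± 0.18 for Sr02R05C08, both inside 2-fold.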

How the data were processed

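Total RNA was isolated from backfat kept in RNAlater and then amplified by a linear method and dye-labelled, per the labels' protocols. The deposited files give, for each channel, the intensity of every spot and of the ring around it in linear scanner units before any normalization. The image software is of version 5.1, per the file headers. Hybridisation and scanning are not given in the sources used here.

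Median background was subtracted from mean signal, log2(Cy5/Cy3) was centred on the array's median, and the copies were averaged. Marked spots and the first 12 positions of each block, taken for shared or control spots, were left out. The 4 steps and a dye term were solved from the 5 Taihu loop arrays. Values without the array labelled Taihu month 4 over month 5 were added after seeing the data. A spot was counted as at the ceiling in a channel where its median signal, before subtraction, was at the scanner's highest value (65535). The number of arrays, with 1 RNA sample per month, limits the precision.

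Named positions are, for each step and for month 5 over month 1, those with the largest change among positions past 2-fold in every copy and of the same sign by the indirect path, 2 per direction. The members, lists and rules were chosen with earlier results of these data known. The gene and marker lists were not run, because no position has a gene name, and the table of processed values was not used, because its rows match no position code. Alternatives used normexp (offset 50) and loess (span 0.3) of limma 3.58.1 in R 4.3.3, other centring, other dye terms, no ceiling spots, median signal, and a fit to all 15 arrays with each left out in turn. Other steps used Python 3.11.15, numpy 2.4.6 and pandas 2.3.3. The loop, the indirect path and the 15-array fit were tested on simulated data (20 sets). In these sets all arrays shared their dye terms, and there was no ceiling and no array that went against its labels. The solution without the array labelled Taihu month 4 over month 5 was not among those tested.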

Additional observations from a re-analysis of the deposited data

Results flagged for a closer look

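At 4 named positions a step had opposite directions in the Taihu and the Landrace loop. The differences were not tested, since each breed has 1 RNA sample per month. Sr02R06C02 was at log2 -1.24 for month 2 over month 1 in Taihu (-1.34 without the array labelled month 4 over month 5) and at 0.92 in Landrace. For month 5 over month 4, Sr01R07C08 was at 1.65 in Taihu, a value that rests on ceiling spots, and at -0.46 in Landrace. Sr01R05C08 was at 1.43 in Taihu for the same step, a value that also rests on ceiling spots (5.94 without that array, 2.44 by the indirect path). In Landrace it was at -0.38. Sr02R05C02 was at -1.08 in Taihu for that step and at 0.08 in Landrace. Without that array its Taihu value was -0.07, and by the indirect path it was -0.16. The size of the Taihu value therefore rests on that array. The signs stayed opposite without it, but both breeds were then well inside 2-fold.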

How the results depend on the processing

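No direction of a named month 3 over month 2 value was reversed under the alternatives run. This was partly set in advance, because the rule for named positions required the same sign by the indirect path, which is among the alternatives. Sr02R09C04 had values under 25 settings and the other named positions of this step under 26. With all 5 arrays it had no value without ceiling spots. The main root mean squares of the 4 steps, in order of time, were 0.86, 1.25, 0.42 and 0.47, and the counts beyond 2-fold were 18, 30, 4 and 7. Among the named positions of month 3 over month 2, values moved at Sr01R04C03 and Sr02R09C04. Over the settings they ran from log2 2.37 to 2.79 at Sr01R04C03 and from -4.93 to -3.80 at Sr02R09C04. Root mean squares and counts that moved are given here, with those of the leave-one-out fits as ranges below. The cause was not tested. For month 2 over month 1 the root mean square was 0.815 with normexp and loess, 0.832 with normexp and the array median, 0.779 without a dye term, 0.807 with the dye term of both loops, 0.656 without ceiling spots (125 positions), 0.826 in the 15-array fit, 0.794 by the path, 0.772 without the array labelled month 4 over month 5 and 0.776 without it and without ceiling spots. The count was 10 without ceiling spots. For month 3 over month 2 it was 1.52 without a dye term, 1.34 with the dye term of both loops, 0.990 without ceiling spots and 1.43 without that array, and the count was 19 without ceiling spots. For month 4 over month 3 it was 0.383 and 0.394 with the normexp settings, 0.652 without a dye term, 0.467 with the dye term of both loops, 0.247 without ceiling spots, 0.512 by the path, 0.546 without that array and 0.396 without it and without ceiling spots. The counts were 8 without a dye term, 0 without ceiling spots and 2 without that array and ceiling spots. For month 5 over month 4 it was 0.418 with normexp and loess, 0.566 without a dye term, 0.388 without ceiling spots, 0.841 by the path, 1.32 without that array and 1.10 without it and without ceiling spots. The counts were 13, 3, 15, 32 and 28 without a dye term, without ceiling spots, by the path, without that array, and without both.

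Leaving out each array of the 15-array fit gave root mean squares of 0.772 to 0.937, 1.11 to 1.31, 0.393 to 0.472 and 0.441 to 0.878 for the 4 steps, and counts of 17 to 24, 21 to 30, 3 to 5 and 5 to 16. The highest values at month 5 over month 4 came without the array labelled Taihu month 4 over month 5. At month 3 over month 2 the median of all positions was 0.16, and 0.04 when arrays were centred on the first 12 positions. The split of 12 higher and 18 lower then became 4 and 21, and it was 5 and 18 with normexp and loess, 5 and 17 in the 15-array fit, and 11 and 8 without ceiling spots, where the excess of lower positions was not present. No paired analysis was possible because the labels give no replicate numbers. The table of processed values was not run as an alternative, because its rows match no position code. Ceiling spots limit the upper end of the levels.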
